A study of Homo sapiens with 197 samples.

Results

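The 7 genes described here, ADAM2, SPACA3, PLCZ1, C9orf11, ROPN1, C10ORF82 and TUBA3C, encode proteins of the sperm surface, the acrosome and the sperm tail, or act when sperm meets egg. They were chosen by name among 42 tissue-restricted genes whose RNA was counted with Nanostring probes, and all 7 have a row in every lane. The screen asked whether activated signaling can switch such genes on in IMR90 cells, which are non-transformed human lung fibroblasts. IMR90 cells were infected with retroviruses that each encode a kinase carrying a myristoylation signal, which brings it to the membrane, and cells were harvested 4 days later. After the HK1 lane was left out, each kinase had 1 lane, apart from 2 names with a second lane, and 3 lanes covered 2 IMR90 control wells, called empty vector in the labels and non-infected in part of the study text. The series also held 2 lanes of SW39, a transformed derivative of IMR90 that its labels also tag as IMR90 with empty vector, and 6 lanes of a human reference RNA mixed from cancer cell lines. The kinase wells have no replicate wells, and the panel has no fibroblast marker against which the cell type could be checked.

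Sperm must bind and fuse with the egg and then start its development, and separate genes serve these steps. ADAM2 is a sperm surface protein that takes part in contact with the egg, SPACA3 is a lysozyme-like acrosomal protein, and C9orf11, now named EQTN, encodes the acrosomal protein equatorin. PLCZ1 is the sperm phospholipase that starts calcium waves in the egg. ROPN1 is a protein of the fibrous sheath of the tail, C10ORF82, now named SPMIP5, is a microtubule inner protein of sperm, and TUBA3C is a testis alpha-tubulin. Somatic cells such as fibroblasts normally keep these genes silent.

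Promoter windows are shown because the genes differ in CpG content and because 1 member has a near copy. The sequences are from RefSeq (GRCh38.p14), cover the 250 bases upstream of an annotated start and read 5′ to 3′ in the direction of the gene. They were found for 6 of the 7 members, all but ADAM2. ROPN1, PLCZ1 and C10ORF82 each had 2 windows with different starts, of which only the first listed is used here. In the ROPN1 window, chr3:123992125-123992374 on the minus strand, capitals mark the run of 230 bases that also stands letter for letter in the window of ROPN1B, a second gene of the same family. In the windows of TUBA3C (chr13:19181825-19182074), C10ORF82 (chr10:116670283-116670532) and C9orf11 (chr9:27297151-27297400), all on the minus strand, capitals mark each CpG.
ROPN1: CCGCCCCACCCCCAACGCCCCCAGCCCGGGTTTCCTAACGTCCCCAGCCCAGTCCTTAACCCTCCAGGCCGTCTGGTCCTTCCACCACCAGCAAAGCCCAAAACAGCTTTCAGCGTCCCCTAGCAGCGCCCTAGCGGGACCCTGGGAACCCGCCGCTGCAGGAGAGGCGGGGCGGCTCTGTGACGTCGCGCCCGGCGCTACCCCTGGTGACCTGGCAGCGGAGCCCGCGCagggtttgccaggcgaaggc
TUBA3C: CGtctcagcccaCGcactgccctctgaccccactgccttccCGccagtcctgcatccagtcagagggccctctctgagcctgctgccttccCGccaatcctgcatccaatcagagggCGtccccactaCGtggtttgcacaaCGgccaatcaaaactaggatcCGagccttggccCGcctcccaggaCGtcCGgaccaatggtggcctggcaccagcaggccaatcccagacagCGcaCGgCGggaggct
C10ORF82: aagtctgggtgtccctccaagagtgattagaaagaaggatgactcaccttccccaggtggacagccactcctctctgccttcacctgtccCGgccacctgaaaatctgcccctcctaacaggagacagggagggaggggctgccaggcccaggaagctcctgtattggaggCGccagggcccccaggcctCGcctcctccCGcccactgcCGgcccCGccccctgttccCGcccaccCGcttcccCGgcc
C9orf11: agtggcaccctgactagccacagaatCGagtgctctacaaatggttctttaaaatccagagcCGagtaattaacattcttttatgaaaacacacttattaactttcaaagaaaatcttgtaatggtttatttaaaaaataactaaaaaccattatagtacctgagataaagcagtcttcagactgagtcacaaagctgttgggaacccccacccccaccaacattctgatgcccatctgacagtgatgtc

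The ROPN1 window held 21 CpG, TUBA3C 14, C10ORF82 9, SPACA3 5, C9orf11 2 and PLCZ1 0, against a median of 11 over 35097 windows of the same length. The letters CCAAT, on either strand, stood in the windows of C10ORF82 and TUBA3C and in 32% of all windows. TGACG, on either strand, stood in the ROPN1 window and in 21.2% of all windows. Transcripts of ROPN1 and ROPN1B, and of TUBA3C with TUBA3D and TUBA3E, come from closely related genes. Whether the probes tell them apart was not tested, so counts under ROPN1 and TUBA3C are uncertain between these copies.

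The lanes held 29629 to 340763 counts in the kinase group, 132257 to 152599 in the controls, 123789 to 142790 in SW39 and 108768 to 233536 in the reference RNA. Counts were normalized to the positive spike-ins and then to PGK1, TBP and TUBB2A, and a raw count was called above background when it exceeded the mean plus 2 SD of the 8 negative-control probes of its lane. The row named ADAM12 was highest in the well of MAP3K7, at 686 raw counts, but among the 15 rows that are not tissue-restricted some values do not follow their names. The row named MyrFlag had a median of 646 raw counts in kinase lanes and 610, 684 and 702 in control lanes, whereas the row named ZBTB33 had a median of 20160 raw counts in kinase lanes, up to 116387, was above background in every one of them, and had 9, 13 and 18 in control lanes. Those rows are therefore cited only by the names in the files, which may not be what they count.

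In the IMR90 controls none of the 7 genes rose above background in any lane. Background levels were 22.7 counts in the IMR90#2 lane, 25.9 in IMR90#1 and 17.1 in the second lane of IMR90#2. PLCZ1 had 19, 18 and 15 raw counts in these lanes, in the same order, and ADAM2 had 12, 12 and 14. ROPN1 had 11, 2 and 3 raw counts, so its count in the IMR90#2 lane was well above that in the other two. The second IMR90#2 lane bears the sample number of IMR90#1, and over 17 abundant probes it differed from IMR90#1 by 0.19 (root mean square, log2 scale) but from the other IMR90#2 lane by 0.54. The second lanes of PIK3CG and PTK2 were likewise nearer to the lane with the same sample number (0.16 and 0.13). They were farther from the lane of the same name (0.48 and 0.58), with which they were averaged here. The ROPN1 values below depend on how the second IMR90#2 lane is assigned.

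C10ORF82 had 4, 4 and 1 raw counts in the controls, TUBA3C 9, 4 and 3, SPACA3 7, 5 and 9, and C9orf11 6, 6 and 7. These values all lie within background.

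**Figure D1:**
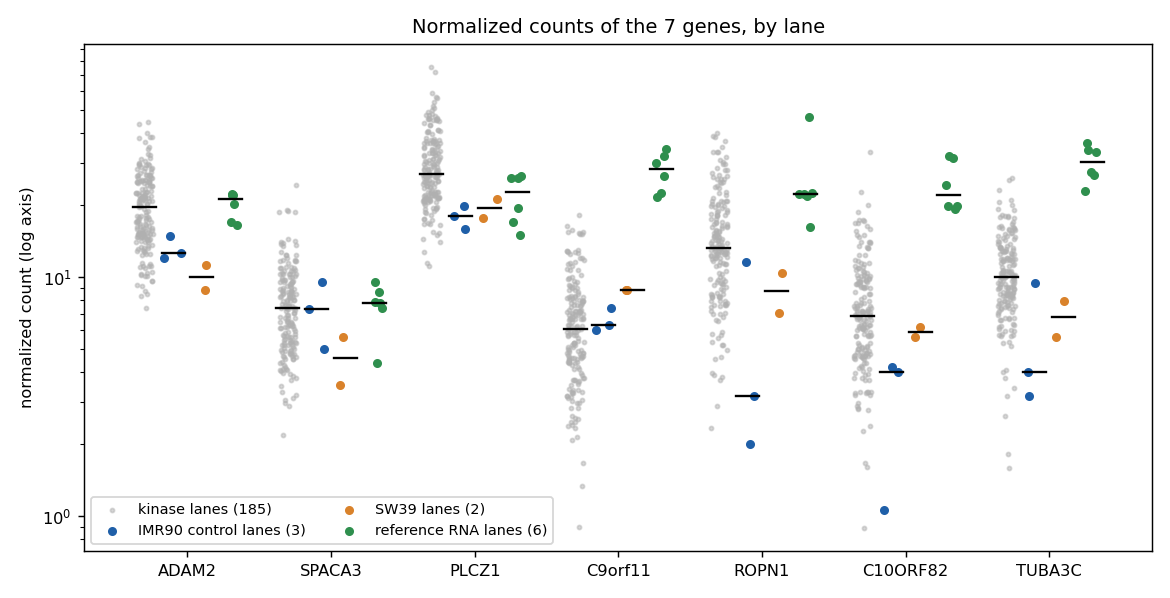
Normalized counts of the 7 genes on a log axis, 1 point per lane, for the kinase lanes, 3 IMR90 control lanes, 2 SW39 lanes and 6 reference RNA lanes, with a black line at each median. The reference RNA points of C9orf11, C10ORF82, TUBA3C, ROPN1 and ADAM2 lie above every control point of the same gene. A single ROPN1 reference lane, at 47, stands above the other ROPN1 reference lanes.

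In the reference RNA, which includes testicular embryonal carcinoma cells, C9orf11 was above background in 5 of the 6 lanes, TUBA3C and C10ORF82 in 4 each, and the other members in 0 to 2. The ratio of geometric means of normalized count plus 1, reference RNA over controls, was 6.17 for C10ORF82, 5.36 for TUBA3C, 5.35 for ROPN1 and 3.85 for C9orf11. It was 1.52 for ADAM2, 1.17 for PLCZ1 and 1.12 for SPACA3. So 4 of the 7 members reached 2-fold, against 78.6% of the 42 tissue-restricted genes (33 of 42).

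The raw counts of C9orf11 in the 6 reference lanes were 58, 40, 55, 46, 47 and 37. Those of TUBA3C were 69, 51, 69, 35, 50 and 39. Those of C10ORF82 were 51, 45, 40, 49, 29 and 34. For these genes, and also for ROPN1 and ADAM2, every reference lane was higher, on the normalized scale, than both control wells. The same was true of 78.6% of the 42 genes.

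ROPN1 had a normalized count of 47 in the first reference lane and 16.2, 21.8, 22.2, 22.5 and 22.3 in the others, and its raw count exceeded background in 2 of the 6. The first lane also had 80 counts for the negative-control probe NEG_H, and its background level was 72.9 counts, against 29 to 40.1 in the other reference lanes. Without that lane the ROPN1 ratio was 4.70. ADAM2 (57, 41, 34, 31, 25 and 24) and PLCZ1 (68, 36, 31, 26, 38 and 28) were each above background in 2 lanes, and SPACA3 (20, 16, 9, 12, 14 and 8) in none. When counts below background were set to the background level, no member reached 2-fold and the highest ratio was 1.31, for TUBA3C. All control values behind these ratios lay within background.

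In SW39 cells the ratio to the controls was 2.06 for ROPN1 and 1.70 for C10ORF82 and lay between 0.73 and 1.34 for the other members, at counts mostly within background. The raw counts in SW39#2 and SW39#1 were 22 and 24 for PLCZ1, 14 and 10 for ADAM2, 13 and 8 for ROPN1, and 11 and 10 for C9orf11. Those of C10ORF82 were 7 and 7, of TUBA3C 7 and 9, and of SPACA3 7 and 4. Of these 14 values, only PLCZ1 in SW39#1 exceeded background, at a level of 17.7 counts.

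With edgeR's quasi-likelihood test on the raw counts, 2 SW39 wells against 2 control wells, none of the 7 genes passed a Benjamini-Hochberg adjusted p of 0.05. Of the 57 endogenous rows 22.8% did (13 of 57), most of them among the 15 rows that are not tissue-restricted. Of the 42 tissue-restricted genes only ADAM12, ATAD2, DAZL and FMR1NB passed. No member had an unadjusted p under 0.05 by edgeR or by DESeq2 with housekeeping size factors. The log2 change of C10ORF82 was 0.90 (SE 0.49, edgeR adjusted p = 0.334) and that of ROPN1 0.67 (SE 0.41, adjusted p = 0.383). By limma on log2 normalized counts ROPN1 passed, with a log2 difference of 1.04 (adjusted p = 0.0249), and over the alternatives its adjusted p ranged from 0.0249 to 0.882. ROPN1 was the only member to reach 2-fold, against 9.52% of the 42 genes, and its ratio was 1.57 when second lanes were left out. For C9orf11, ROPN1, C10ORF82 and TUBA3C both SW39 wells were above both control wells, as for 40.5% of the 42 genes.

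In kinase lanes, counts above background were frequent for PLCZ1, less so for ADAM2 and ROPN1, and rare or missing for the others. PLCZ1 was above background in 72.4% of the lanes (exact 95% binomial interval 65.4 to 78.7), ADAM2 in 39.5% (73 lanes, interval 32.4 to 46.9) and ROPN1 in 17.3% (32 lanes, interval 12.1 to 23.5). TUBA3C was above in 7 lanes (3.78%) and C10ORF82 in 2 (1.08%). SPACA3 and C9orf11 were above in 0 lanes, which allows a share of up to 1.62% by the rule of 3 counts and 1.97% by the exact 95% interval. These intervals cover counting of lanes only.

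Together the members made 248 such pairs of gene and lane out of 1295, or 19.2%, and the share over all 42 genes was 16.3%. Negative-control probes, which have no target, serve as a measure of the rule. Against the level set by the other 7 probes, NEG_F was above in 30.3% of the lanes (56 lanes, exact 95% interval 23.7 to 37.4) and NEG_E in 28.6% (53 lanes). The other 6 probes were above in 0% to 5.95% of the lanes, and all 8 together in 8.65% of 1480 pairs of probe and lane. Against the level from all 8 probes, which was used for the members but includes the probe itself, NEG_F was above in 11 lanes, NEG_H in 9 and NEG_E in 7. With the negative probes, but not the members, held to the level from the other 7, the interval of ADAM2 overlaps that of NEG_F and the ROPN1 share lies below both NEG_F and NEG_E. In that unlike comparison only PLCZ1 of the members had a share whose interval lay above the intervals of all 8 negative probes. At the level from all 8 probes, ADAM2 (73 lanes) and ROPN1 (32 lanes) were above in more lanes than any negative probe. A high negative probe raises that level itself and so can hardly exceed it. This comparison therefore cannot decide whether ADAM2 and ROPN1 differ from the negative probes.

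**Figure D2:**
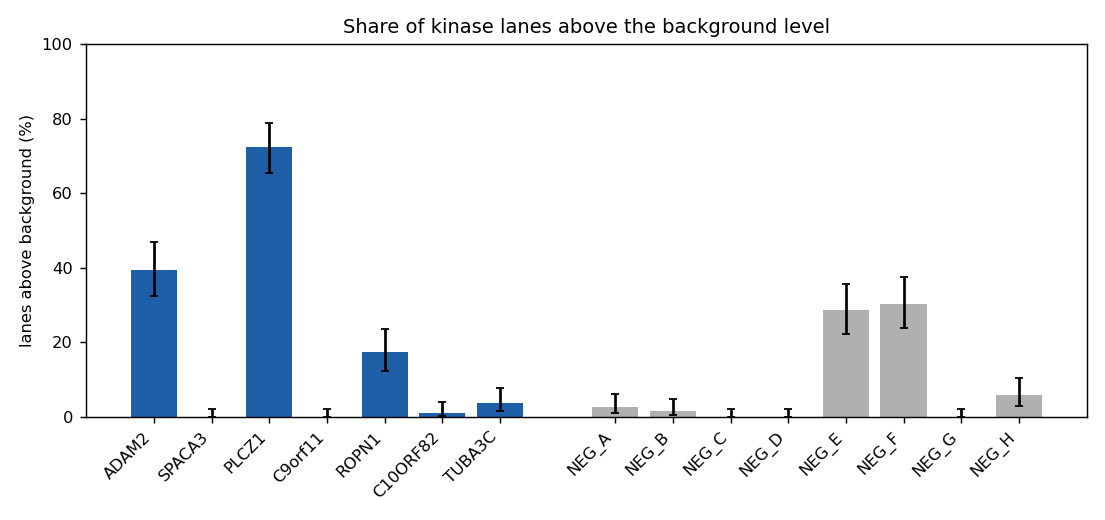
Share of kinase lanes in which the raw count exceeded the background level, in percent, for the 7 genes (blue, level from 8 negative controls) and for each negative-control probe (grey, level from the other 7), with exact 95% binomial intervals as bars. PLCZ1, at 72.4%, stands above all negative probes, whereas ADAM2, at 39.5%, is near NEG_F at 30.3%.

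Over kinase wells the median raw counts were low. They were 26 for PLCZ1 (range 4 to 65), 18 for ADAM2 (2 to 42), 12 for ROPN1 (2 to 44) and 10 for TUBA3C (1 to 25). They were 7 for SPACA3 (2 to 19), 6 for C10ORF82 (1 to 22) and 6 for C9orf11 (1 to 14). The medians of NEG_E and NEG_F were 16 and 17 counts.

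Between kinase wells and controls, ROPN1 was the only member to pass the test. The difference was 1.62 on the log2 scale of normalized count plus 1, or 3.08-fold, with the wells at 3.84 ± 0.72 (mean ± SD over the kinase wells) and the controls at 1.59 and 2.85 (exact two-sided permutation test over 17020 choices of the control wells, adjusted p = 0.0435). Of the kinase wells, 91.3% were above both controls. Rows higher in kinase wells and past the threshold made up 5.26% of the 57 endogenous rows (3 of 57), ADCY10 and the row named ZBTB33 being the others.

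The call for ROPN1 did not hold when the second IMR90#2 lane was left out (log2 difference 1.22, adjusted p = 0.329) or joined to IMR90#1 by its sample number (1.11, adjusted p = 0.261, exact permutation test). Without IMR90#1 the difference was 0.99 and without IMR90#2 it was 2.25, but no call could be expected there, since the smallest p that 1 control well allows in the exact permutation test, 0.00543, adjusts to 0.310 for a single row. With counts below background set to the background level, the difference was 0.0091. Over the alternatives its adjusted p by the exact permutation test ranged from 0.0156 to 0.985. Among samples numbered 1 to 12, the 10 kinase lanes were above the IMR90#1 lane by 1.92 (log2), with all 10 lanes above it. Among those numbered 13 to 24 the mean of the 9 kinase lanes differed from the IMR90#2 lane by -0.26, with 5 of the 9 lanes above it.

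TUBA3C was 1.90-fold higher in kinase wells (log2 difference 0.93, exact permutation p = 0.0254, adjusted p = 0.181) and C10ORF82 1.98-fold (0.99, p = 0.0378, adjusted p = 0.215), and neither passed after adjustment. The log2 differences were 0.64 for PLCZ1, 0.53 for ADAM2, 0.14 for SPACA3 and -0.07 for C9orf11, with adjusted p by the same exact permutation test of 0.300, 0.348, 0.841 and 0.918. The median difference was 0.64 over the 7 members and 0.50 over the 42 tissue-restricted genes. The control wells came early in the series, as samples 1 and 13, so these differences cannot be told apart from position. Against the 1 control lane among samples 1 to 12 and 13 to 24, TUBA3C differed by 1.06 and -0.11 (log2). C10ORF82 differed by 0.37 and 0.33, PLCZ1 by 0.35 and 0.12, and ADAM2 by 0.39 and 0.10. SPACA3 differed by 0.10 and -0.49, and C9orf11 by -0.29 and -0.09.

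Counts of ROPN1 and C10ORF82 rose with those of the row named ZBTB33. As that row was high in every kinase lane and low in the controls, it may not count ZBTB33 RNA, and whether it counts the vector or the kinase was not tested. Over the kinase lanes the Spearman correlation of normalized counts with that row was 0.67 for ROPN1 and 0.58 for C10ORF82, against 0.31 for PLCZ1, 0.20 for SPACA3, 0.15 for C9orf11, 0.13 for ADAM2 and 0.09 for TUBA3C. Of the 42 genes MAEL (0.83), CTAG1B (0.77), MAGEA12 (0.72) and PIWIL1 (0.70) had higher values, so ROPN1 was not the gene nearest to that row. The lanes share their scaling, and the 8 negative probes gave -0.16 to 0.05. With the lanes put in 4 groups of 46 or 47 by the count of that row, ROPN1 in the lowest group had a normalized count of 10.0 ± 5.20 (mean ± SD, n = 47 lanes), with 0 lanes above background. In the highest group it had 21.7 ± 8.55 (n = 46) and 19 lanes above background. C10ORF82 went from 5.90 ± 3.67 to 10.2 ± 4.16 between the same groups, with 1 and 0 lanes above background. The scaled mean of the negative probes was 10.1 ± 3.48 in the highest group. Over the 4 groups, lowest to highest, PLCZ1 was above background in 27, 39, 30 and 38 lanes and ADAM2 in 13, 20, 23 and 17. TUBA3C was above in 0, 0, 6 and 1 lanes, and SPACA3 and C9orf11 in 0 lanes of every group. What part the relation with that row has in the difference between kinase wells and controls was not tested.

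**Figure D3:**
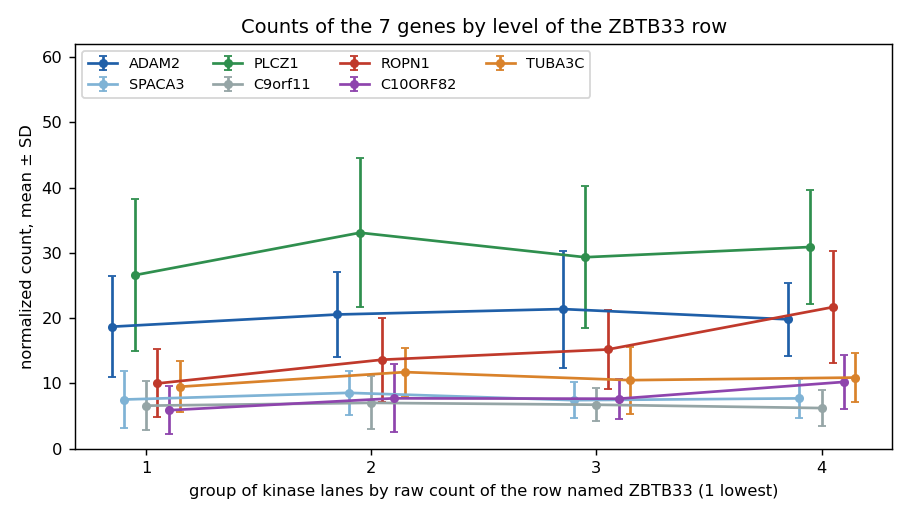
Normalized count (mean ± SD over lanes) of the 7 genes in 4 groups of 46 or 47 kinase lanes ordered by the raw count of the row named ZBTB33, lowest at 1 and highest at 4. ROPN1 goes from 10.0 to 21.7 and C10ORF82 from 5.90 to 10.2, while the points of ADAM2 stay between 18.7 and 21.4.

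By likeness of pattern over the kinase wells, given as a description since the wells share scaling and background, ADAM2 and PLCZ1 were each most like the other (Spearman 0.70), the only such pair of members. The second row most like ADAM2 was FMR1NB (0.63). For PLCZ1 it was DDX53 (0.69). SPACA3 was most like FMR1NB (0.64) and DDX4 (0.61), TUBA3C most like PLCZ1 (0.51) and SPATA22 (0.50), and C9orf11 most like SSX1 (0.47) and PRAME (0.45). ROPN1 was most like the row named ZBTB4 (0.70) and CTAG1B (0.69), and C10ORF82 like the row named ZBTB4 (0.62) and PIWIL1 (0.60). ROPN1 with C10ORF82 gave 0.55.

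Counts also followed the position of a lane in the series. In blocks of 12 sample numbers, the median normalized count of PLCZ1 ranged from 21.1 to 48.7 and that of ADAM2 from 13.6 to 35.6, both highest in the twelfth of 16 blocks. TUBA3C (6.91 to 15.8) and SPACA3 (4.61 to 11.2) were also highest in that block. ROPN1 was highest, at 22.3, in samples 25 to 36, where the median of NEG_H was 49.8 and the mean of the negative probes had a median of 21.2. In that block 0 of 12 lanes were above background for ROPN1, PLCZ1 or ADAM2. What part the negative-control counts have in the ROPN1 values there was not tested.

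The raw counts of 5 members followed the mean of the negative probes of the lane by rank over the kinase lanes. Of the 14 relations computed, against negative-control mean or scaling factor, the strongest by rank was TUBA3C with the negative-control mean (Spearman rho = 0.43, permutation p = 1e-05, adjusted 4.67e-05; Pearson r = 0.34, permutation p = 2e-05), and r was 0.33 without the 2 farthest lanes. The strongest by Pearson r was ROPN1 with the negative-control mean, where r was 0.42 (permutation p = 1e-05, adjusted 3.5e-05) and rho 0.29 (adjusted permutation p = 0.000175), and r was 0.36 without those lanes. Normalized counts of SPACA3 and C9orf11 rose with the scaling factor (rho = 0.39 and 0.37, adjusted permutation p = 4.67e-05 for both; r = 0.40 and 0.39). A normalized count is the raw count times that factor, so part of such a relation is built in. The permutation p-values do not allow for this. The permutations also shuffled lanes freely, although counts of members and negative probes followed blocks of samples. In samples 25 to 36 the mean of the negative probes had a raw median of 24.9. Leaving out the 2 farthest lanes does not remove that block. After adjustment 10 of the 14 rank correlations passed, those with the scaling factor included, and 1e-05 is the smallest p the permutations can give.

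Single wells stood out for few members. Z-scores, computed per gene over the kinase and control wells on log2 normalized count plus 1, exceeded 2.5 in 4 of 1281 pairs of member and kinase, or 0.31%, against 0.39% of pairs over the 42 genes. Z-scores below -2.5 were more frequent, in 10 member pairs or 0.78%, against 0.74% over the 42 genes. Above 2.5, STK32C gave SPACA3 (Z = 3.10) and PLCZ1 (Z = 2.89), MAPK12 gave PLCZ1 (Z = 2.76) and PDIK1L gave C10ORF82 (Z = 3.2). These are values of single wells with no replicate.

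In the STK32C well PLCZ1 had 53 raw counts, well over the level of 18.7, but SPACA3 had 17, below it. In the MAPK12 well PLCZ1 had 38 raw counts against a level of 14.9. In the PDIK1L well C10ORF82 had 13 raw counts against 13.2, with a scaling factor of 2.57, so only the 2 PLCZ1 values were above background. With blocks of 12 sample numbers centred, the PLCZ1 values fell to 1.65 in STK32C and 1.5 in MAPK12.

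For ADAM2 the highest wells were PRKACG (28 raw counts, Z = 2.41), MAPK12 (23) and MVK (24), all above background, and the lowest was PLK1 (9). After the wells above, the highest for SPACA3 were MAP3K14 and NADK and the lowest was LCK, and for PLCZ1 the third was STK40 (39 raw counts) and the lowest CDK5 (9). For ROPN1 the highest were MAP3K8 (30 raw counts), HK2 (44) and AMHR2 (39), with Z of 2.09, 2.04 and 2.03, and the lowest was PCTK2 (2). For C10ORF82 EPHA4 and MAP3K8 followed PDIK1L, and MAP2K5 was lowest. For TUBA3C they were SPHK2, IHPK2 and MOBKL2A, with PBK lowest, and for C9orf11 MAST1, IHPK2 and PRKAG2, with FRK lowest. The highest wells named for PLCZ1 and ROPN1 were above background. Of those named for SPACA3, C10ORF82, TUBA3C and C9orf11, only SPHK2 for TUBA3C was, with 19 raw counts against a level of 15.4. The C9orf11 wells had 9, 9 and 10 raw counts, with scaling factors of 2.02, 1.83 and 1.57.

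The wells of 4 kinases known from testis, TSSK1B, TSSK6, GK2 and PRKACG, are given as examples, and the panel holds other kinases found in testis, such as STK33, DYRK4 and CAMK4. The 28 Z-scores of the first 4, none above 2.5 where 0.39% of all pairs were, ranged from -1.68 to 2.41, with medians of 1.54 for PRKACG, 1.39 for TSSK6, 0.27 for TSSK1B and -0.65 for GK2. TSSK1B and TSSK6 are testis-specific serine kinases, and PRKACG is a catalytic subunit of protein kinase A. ADAM2 in PRKACG was the highest of all wells for that gene. Scaling factors were 1.59 for PRKACG, 1.40 for TSSK6, 1.16 for TSSK1B and 1.13 for GK2, against a median of 1.03 over the kinase lanes. What part the scaling factor or the position in the series has in the Z-scores of these 4 wells was not tested.

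The other germline genes of the panel are given as counts. At 2-fold or more in the reference RNA were 6 of 8 RNA-binding and piRNA genes, 4 of 5 meiosis and chromatin genes and 4 of 5 testis enzymes, against 78.6% of the 42 genes. In kinase lanes 6.22%, 10.5% and 1.95% of their pairs of gene and lane were above background, against 16.3% over the 42 genes. That 16.3% includes ATAD2, ALAS1 and ADAM12, which were above background in nearly every kinase lane. Of the 18 other germline genes 1, the enzyme ADCY10, passed the test against the controls, higher in kinase wells, against 5.26% of the 57 rows.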

How the data were processed

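RNA from kinase-infected IMR90 cells, IMR90 controls, SW39 cells and a reference RNA was counted with Nanostring probes, 75 per lane. After HK1 was left out, 185 kinase lanes covered 183 kinases. The authors deposited raw counts per lane, with no normalization, and a table that is described in the study as normalized. In that deposited table, taken as signal, every lane was a constant multiple of its counts, with no scaling in 8 lanes, among them all 6 reference lanes. It served only as an alternative. Per the labels, 4 days separated infection and collection. Versions of the authors' counting software are not given in the sources used here.

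Counts were scaled by the geometric mean of 6 positive controls, then of PGK1, TBP and TUBB2A. HK1 was left out because the geometric mean of its housekeeping counts was 1.26. Lanes of one name were averaged as log2(normalized + 1), or summed for edgeR. Tests were edgeR 4.0.16 (quasi-likelihood, R 4.3.3) and exact permutation tests with Benjamini-Hochberg adjustment over 57 endogenous rows. DESeq2 1.42.0 and limma 3.58.1 were alternatives. Python 3.11.15, scipy 1.17.1 and matplotlib were used, and the scripts were tested on simulated data. Few counts per probe limit precision. No label says that wells of one group were separate cultures, so p-values measure the spread between these samples, which may be technical. In the edgeR comparison the replicate number of the titles was not taken as pairing, since deviations of same-numbered wells correlated at 0.05. All 7 members were matched to RefSeq by accession.

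The members and gene lists were chosen with earlier results of these data known. Named wells were the 3 highest and the lowest per member and all with a Z-score above 2.5. The pairing of second lanes by sample number, the level without NEG_H, the omission of samples 25 to 36, the grouping of lanes by the ZBTB33 row and the comparison of row names with values were chosen after seeing the data.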

Additional observations from a re-analysis of the deposited data

Results flagged for a closer look

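The normalized count of ROPN1 in the first reference RNA lane, 47, lay far from the other 5 lanes, which ranged from 16.2 to 22.5. Its gap to the nearest lane was 0.79 of the whole range, above Dixon's critical value of 0.625 for 6 values. Chance passes that value in about 1 group of 20. The gap was computed at the high and the low end for every member, and only this gap passed. No allowance was made for these repeated tests, so a pass by chance somewhere among them is more likely than that rate. The negative-control probe NEG_H had 80 counts in the first reference RNA lane. The part of this in the ROPN1 count was not tested.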

How the results depend on the processing

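Low raw counts limit every member. No member passed in SW39 against controls with edgeR or DESeq2 under any of the alternatives run, and 1 (ROPN1) passed with limma. Over all 57 rows the 13 calls became 8 with the second lane left out or with DESeq2's own size factors, and 2 to 6 when 1 well was left out. With the replicate number as a block (replicate block), 13 rows and 0 members passed. The change of PLCZ1 in SW39 turned to -0.11 with a TMM offset, -0.0035 with DESeq2's own size factors and ranged from -0.023 to 0.24 when 1 SW39 well was left out.

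For kinase wells against controls, the 3 called rows, 1 of them a member, became 1 row and 0 members with 4 housekeeping genes, the deposited table, a pseudocount of 5, counts below background set to its level, the negative-control mean subtracted, second lanes left out or joined by sample number, or HK1 included. They became 8 rows and 2 members (ROPN1 and C10ORF82) with every lane as its own well, and 0 and 0 without either control well, where the smallest possible p, 0.00543, adjusts to 0.310 for a single row, so that loss says nothing about stability. With counts below background set to its level the differences of SPACA3, C10ORF82 and TUBA3C turned to -0.056, -0.055 and -0.048, and the SW39 ratio of ROPN1 to 0.73. The log2 difference of C9orf11 between kinase wells and controls turned to 0.16 with positive controls only and 0.37 with the negative-control mean subtracted. It lay between -0.15 and 0.0054 when 1 control well was left out, where the same difference for SPACA3 lay between -0.18 and 0.46.

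The 4 pairs with a Z-score above 2.5 became 13 with a pseudocount of 5, 49 with counts below background set to its level, 22 with the negative-control mean subtracted, 7 with HK1 included and 9 with blocks of 12 centred. Members at 2-fold in the reference RNA went from 4 to 7 with positive controls only and to 0 with counts below background set to its level, and stayed at 4 when any 1 lane or control well was left out. In SW39 the 1 such member became 4 with positive controls only, and 0 with a pseudocount of 5, counts below background set to its level, the negative-control mean subtracted, second lanes left out or joined by sample number, or every lane as its own well, and it was 0 to 1 when 1 well was left out. Member and lane pairs above background went from 19.2% to 11.2% with a level of mean plus 3 SD. The cause of these moves was not tested.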
